A study of Mus musculus with 18 samples.

Results

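The urea cycle enzymes are described here by their transcripts in mouse liver: Nags, Cps1, Otc, Ass1, Asl, Arg1 and Arg2. They were chosen by gene name, and all 7 were found once each among the 37303 genes of the expression table. RNA-Seq was performed on whole liver of 18 C57BL/6J mice in 6 groups of 3. WT mice, Gcn2-/- mice and Atf4-/- mice were each given 8 daily intraperitoneal injections of PBS or of ASNase, the asparagine-depleting enzyme asparaginase, at 3 IU per gram body weight. Livers were taken 7.5 h after the last injection by the labels, which give ages of 8 to 12 weeks in one field and of 8 to 16 weeks in another. Both deletions were homozygous and present in the whole body, so that no effect can be assigned to the hepatocyte alone. GCN2 is a kinase that senses amino acid shortage, and ATF4 is a transcription factor whose translation rises when such kinases are active. Males made up 1 of 3 mice in WT PBS and 2 of 3 in WT ASNase, 1 of 3 in both Gcn2-/- groups and 2 of 3 in both Atf4-/- groups, so that sex is balanced between treatments in the deletion strains but not in WT.

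The urea cycle turns ammonia, the toxic nitrogen product of amino acid breakdown, into urea, and the liver is the organ that runs the whole cycle. In the mitochondrion NAGS makes N-acetylglutamate, the activator that CPS1 requires, CPS1 joins ammonia and bicarbonate into carbamoyl phosphate, and OTC joins that product to ornithine to give citrulline. In the cytosol ASS1 couples citrulline to aspartate, ASL splits the product into arginine and fumarate, and ARG1 splits arginine into urea and ornithine, which returns to the mitochondrion. ARG2 is a mitochondrial arginase that is mainly known from tissues other than liver.

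In the GENCODE annotation of mm10, Otc (ENSMUSG00000031173) lies on the X chromosome at chrX:10252305-10321024 on the plus strand. Cps1 lies at chr1:67123026-67231259, Ass1 at chr2:31470207-31520672 and Nags at chr11:102145513-102149477, also on the plus strand. Asl lies at chr5:130011258-130029247 and Arg1 at chr10:24915221-24927484 on the minus strand, and Arg2 at chr12:79130777-79156301 on the plus strand. All 7 are annotated as protein-coding, and the values cover whole genes, not single exons. The expression values of 3 members carry bounds other than these. They are chr5:130011258-130025132 for Asl, chr10:24915208-24927470 for Arg1 and chr12:79130777-79172667 for Arg2. RefSeq (GRCm38.p6) start site sequences were found for 3 of the 7, Otc, Ass1 and Nags. The 250 bases before the start are shown for Otc, the transcript that fell under ASNase in both deletion strains, and for Nags, a mitochondrial partner with no called difference. They span chrX:10252055-10252304 and chr11:102145263-102145512 and are written 5′ to 3′ on the plus strand, with no base in capitals because neither motif searched was found.
Otc: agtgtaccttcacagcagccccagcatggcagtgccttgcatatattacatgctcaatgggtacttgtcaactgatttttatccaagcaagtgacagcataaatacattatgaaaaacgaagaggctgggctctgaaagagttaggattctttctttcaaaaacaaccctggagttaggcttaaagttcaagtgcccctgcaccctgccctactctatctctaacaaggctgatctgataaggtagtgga
Nags: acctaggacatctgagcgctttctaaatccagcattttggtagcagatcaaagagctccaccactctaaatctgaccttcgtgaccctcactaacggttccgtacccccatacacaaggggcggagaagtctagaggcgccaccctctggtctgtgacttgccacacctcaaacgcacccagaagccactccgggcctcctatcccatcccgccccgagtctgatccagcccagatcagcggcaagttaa
The letters TGATGNAA, the core of the C/EBP-ATF response element, and TTGCNNAA, a C/EBP core, were searched on both strands, where an element that holds both is counted under each. They matched 0 times in the windows of Otc, Ass1 and Nags, and were held by 3.45% and 9.56% of the 32851 windows of the same kind. The GC content was 43.6% in the Otc window, 55.6% in the Nags window and 75.6% in the Ass1 window.

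Expression is given as FPKM, a read count scaled to transcript length and sequencing depth, which can be compared between genes. The table holds 1 value for each gene and group, estimated jointly from 3 libraries and flanked by an interval whose bounds, given in parentheses, are the only error used here. Single-library values were not analysed here, so no SD, p-value or replicate check is given, and depth cannot be read from the values. Among genes with FPKM over 3, the median half-width of the interval was 51.3% to 54.2% of the value in the 6 groups. All 42 values of the urea cycle genes had the status OK. FPKM of Eif2ak4, which encodes GCN2, was 2.19 to 3.14 in the 6 groups and not lower in those labelled Gcn2-/-. By the study's methods that allele lacks an exon, which a value over the whole gene does not check. Atf4 stood at 32.3 and 29.3 FPKM in the Atf4-/- groups against 50.4 to 68.1 FPKM in the other 4, with intervals that overlapped those of the WT groups. The study reports Atf4 as absent in Atf4-/- mice by read density plots and also measured it by RT-qPCR. What makes up the FPKM left here was not tested.

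Otc was the urea cycle transcript that set the groups apart. It fell under ASNase in Gcn2-/- liver and in Atf4-/- liver, and its lowest value was 15.7 FPKM, in Atf4-/- ASNase liver. The highest FPKM was 21.6 times the lowest for Otc, against 1.60 times for Cps1, 1.86 times for Nags, 1.86 times for Arg1, 2.01 times for Asl and 3.07 times for Ass1. Of the 15 pairs of groups, 6 had separate intervals for Otc, and 0 of 15 did for each of the other 6 genes. These counts also rest on interval width, since wider intervals need a larger difference to separate. The half-widths were 48.7% to 55.7% of the value for Otc and 44.2% to 49.0% for Nags. They were 68.1% to 83.7% for Ass1, 85.2% to 111% for Cps1 and at least 243% for Arg2. The separate pairs of Otc were Atf4-/- ASNase with each other group and Gcn2-/- PBS with Gcn2-/- ASNase. Over all genes tested, 1.01% to 9.01% had separate intervals in the 9 comparisons, which is a share of genes and not of pairs of groups.

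**Figure D1:**
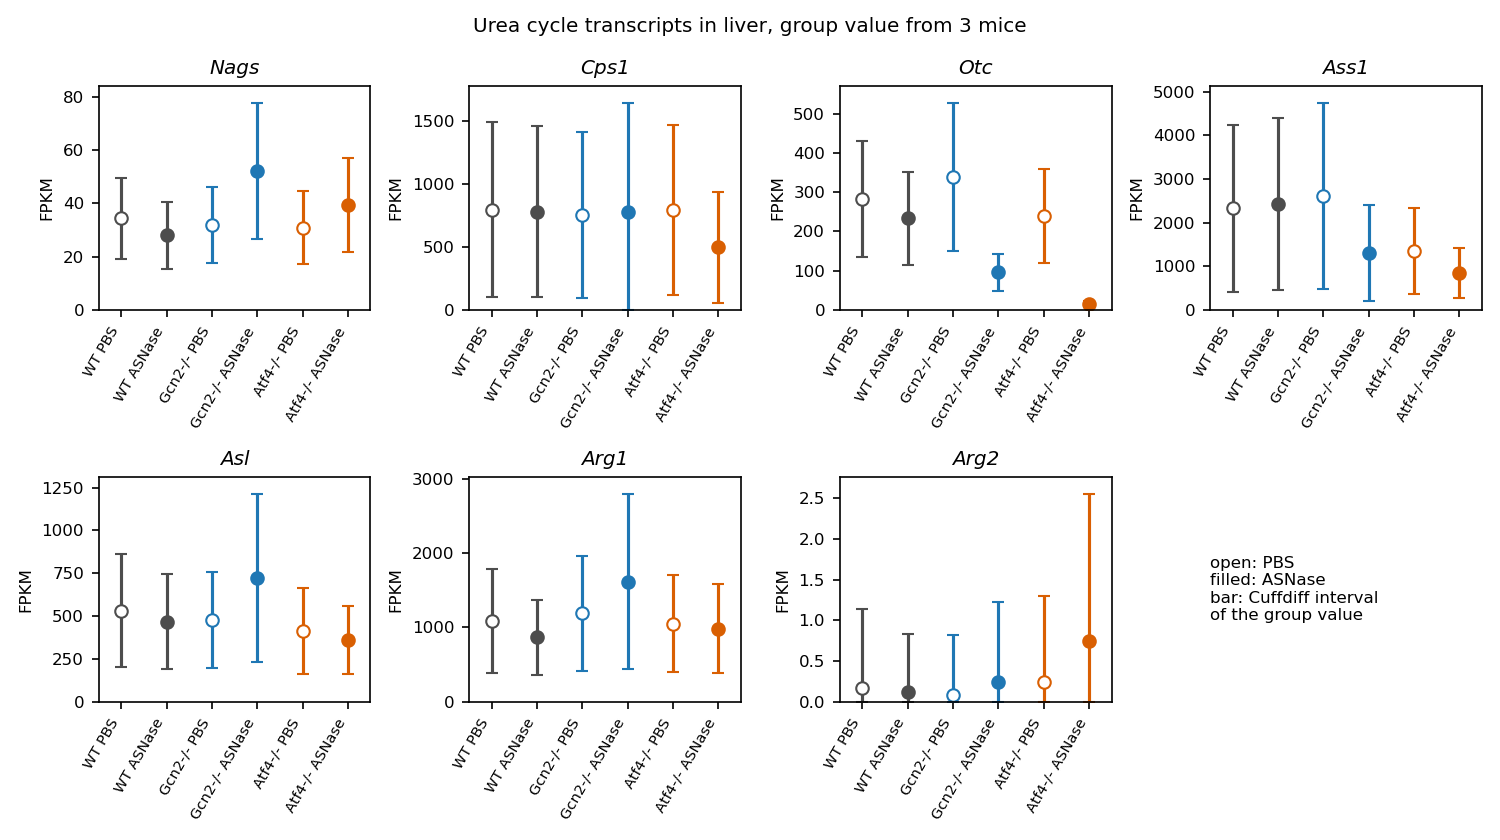
FPKM of the 7 urea cycle transcripts in the 6 groups on linear axes that start at 0, 1 panel a gene, with open circles for PBS, filled circles for ASNase and bars for the Cuffdiff interval of the group value from 3 mice. Otc stands at 96.5 FPKM in Gcn2-/- ASNase and 15.7 FPKM in Atf4-/- ASNase liver against 234 to 339 FPKM in the other 4 groups, while the intervals of every other gene overlap between all groups.

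Nags, the maker of the activator, was the lowest of the 6 transcripts other than Arg2 in 5 of the 6 groups, and Otc was lower in Atf4-/- ASNase liver. With PBS its FPKM was 34.4 (19.2 to 49.6) in WT, 31.8 (17.7 to 46.0) in Gcn2-/- and 30.8 (17.1 to 44.5) in Atf4-/- liver. With ASNase it was 28.1 (15.5 to 40.7), 52.2 (26.7 to 77.8) and 39.4 (21.9 to 56.9) in the same order of strains. The 2 highest values were those of the ASNase-treated deletion strains, and all intervals overlapped. Nags shares 443 of its 2838 exon bases with the antisense gene Gm11586, which was itself at 19.2 to 30.6 FPKM, and since the library kit does not mark strand their reads cannot be told apart there.

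Cps1, the entry enzyme, stood at 797 FPKM (105 to 1490) with PBS and 781 (101 to 1460) with ASNase in WT liver. In Gcn2-/- liver it stood at 754 (96.6 to 1411) and 779 (0 to 1645), and in Atf4-/- liver at 791 (117 to 1465) and 498 (57.1 to 940). The last was the lowest, and 5 values lay within 754 to 797 FPKM. Its intervals were among the widest of the abundant members, with half-widths of 85.2% to 111% of the value.

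Otc, the enzyme that makes citrulline, was at 283 FPKM (136 to 430) in WT PBS and 234 FPKM (115 to 352) in WT ASNase liver. In Gcn2-/- liver it was at 339 FPKM (150 to 528) with PBS and 96.5 FPKM (49.5 to 144) with ASNase. In Atf4-/- liver it was at 239 FPKM (118 to 360) with PBS and 15.7 FPKM (7.21 to 24.2) with ASNase. The intervals of PBS and ASNase overlapped in WT and were separate in both deletion strains. In order of level, Gcn2-/- PBS, WT PBS, Atf4-/- PBS, WT ASNase and Gcn2-/- ASNase each overlapped the next, and the step from Gcn2-/- ASNase down to Atf4-/- ASNase was the only separate one between neighbours. Its rank by FPKM among all genes was between 322 and 392 in the 3 PBS groups and WT ASNase, 785 in Gcn2-/- ASNase and 3846 in Atf4-/- ASNase.

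Ass1, the citrulline-consuming enzyme, had the highest FPKM of the 7 in 4 of the 6 groups. PBS-treated WT liver held 2328 FPKM (424 to 4232) of Ass1 and ASNase-treated WT liver 2430 (453 to 4408). The values with PBS and ASNase were 2614 (475 to 4753) and 1314 (214 to 2414) in Gcn2-/- liver, and 1349 (372 to 2326) and 851 (272 to 1430) in Atf4-/- liver. Both WT groups and Gcn2-/- PBS were high, the other 3 groups were lower, and the intervals of all 6 overlapped.

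Asl, which releases arginine, was at 531 FPKM (200 to 862), 475 (196 to 755) and 414 (163 to 665) in WT, Gcn2-/- and Atf4-/- mice given PBS. Given ASNase, the same strains were at 467 (189 to 745), 721 (229 to 1213) and 358 (159 to 557). Arg1, the cytosolic arginase of hepatocytes, was at 1085 FPKM (382 to 1789), 1195 (418 to 1971) and 1050 (395 to 1704) after PBS, and at 869 (361 to 1377), 1618 (435 to 2801) and 984 (380 to 1588) after ASNase. Gcn2-/- ASNase liver held the highest value of both genes, as it did for Nags, and the intervals overlapped between all groups.

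Arg2 was near the limit of measurement. Its FPKM was 0.167, 0.0860 and 0.235 with PBS and 0.112, 0.239 and 0.744 with ASNase in WT, Gcn2-/- and Atf4-/- liver, each with a lower bound of 0 and with upper bounds of 0.814 to 2.55. It did not reach 3 FPKM in any group and was left out of the calls. Of its 1428 exon bases in the GENCODE annotation, 285 are shared with Vti1b on the opposite strand, at 37.4 to 50.0 FPKM. The antisense gene Gm48780 shares 116, and the bounds behind the expression values differ from that annotation, so that the values of Arg2 are uncertain.

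The first question was how ASNase changed the cycle in each strain. A gene was tested if its FPKM was over 3 in either group and neither value was 0 or lacked the status OK. It was called if its log2(FPKM + 0.1) differed by over 1.5 and its intervals were separate. Differences are given as ASNase minus PBS with an error combined from the half-widths of both intervals, and 6 of the 7 genes, all but Arg2, entered each of the 9 comparisons.

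In WT liver 0 of 6 were called lower, beside 0.121% of 9084 genes tested, and 0 of 6 higher, beside 0.76%. The 6 log2 differences ran from -0.32 for Arg1 to 0.06 for Ass1, with Otc at -0.28 ± 1.05. Their median was -0.23, and that of all genes tested was -0.01.

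In Gcn2-/- liver 1 of 6 was called lower, beside 2.13% of 9218 genes, and 0 of 6 higher, beside 1.56%. Otc fell by 1.81 ± 1.07 on the log2 scale, a 3.51-fold lower FPKM. It ranked 222 from the lowest difference of the 9218. Ass1 had a log2 difference of -0.99, Cps1 of 0.05, Arg1 of 0.44, Asl of 0.60 and Nags of 0.71, all with overlapping intervals. The median of the 6 was 0.24, so that the called gene lay on the other side of 0 from most of its cycle.

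In Atf4-/- liver 1 of 6 was called lower, beside 4.63% of 9485 genes, and 0 of 6 higher, beside 2.74%. Otc fell by 3.92 ± 1.06 on the log2 scale, to a 15.2-fold lower FPKM. It ranked 81 from the lowest of 9485, among the lowest 0.854%. Cps1 and Ass1 had log2 differences of -0.67 each, Asl of -0.21, Arg1 of -0.09 and Nags of 0.35, all with overlapping intervals. The median of the 6 was -0.44 and that of all genes tested 0.08.

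**Figure D2:**
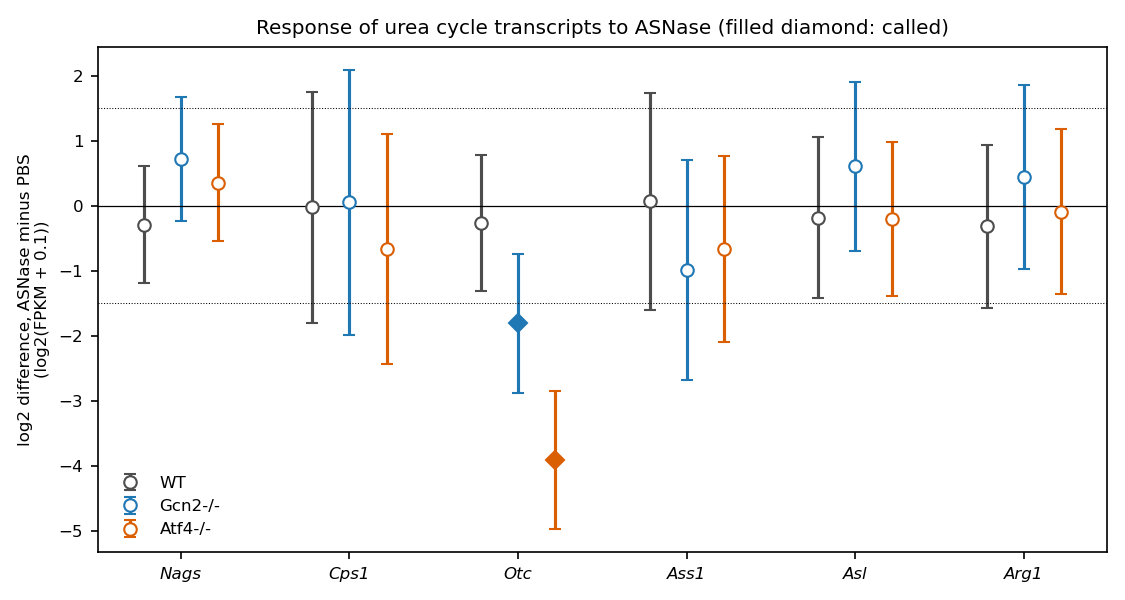
Log2 difference of FPKM + 0.1, ASNase minus PBS, for the 6 transcripts tested (Arg2 is left out) in WT, Gcn2-/- and Atf4-/- liver, with bars for the error combined from both intervals, filled diamonds for called differences and dotted lines at the limit of 1.5 in each direction. The called points are those of Otc, at -1.81 in Gcn2-/- and -3.92 in Atf4-/- liver, and the bars of all other genes cross 0.

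The responses were also set against each other between strains, as 21 differences over 7 genes and 3 pairs of strains. For Otc the log2 response of Atf4-/- liver minus that of WT was -3.64 with an error of 1.49. That of Gcn2-/- minus WT was -1.54 with an error of 1.49, only just past the error, and that of Atf4-/- minus Gcn2-/- was -2.11 with an error of 1.51. The other 18 differences, those of Cps1, Ass1, Asl, Arg1, Arg2 and Nags, were all smaller than their errors. These comparisons share groups and are not independent of each other.

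The deletions alone were compared under PBS. In Gcn2-/- against WT 0 of 6 were called lower or higher, beside 0.65% and 0.392% of 8920 genes, and the log2 differences ran from -0.16 for Asl to 0.26 for Otc. In Atf4-/- against WT 0 of 6 were called lower or higher, beside 0.763% and 0.354% of 9039 genes. There the 6 values were all below 0, from -0.01 for Cps1 to -0.79 for Ass1, with overlapping intervals. In Atf4-/- against Gcn2-/- 0 of 6 were called lower or higher, beside 0.433% and 0.544% of 9015 genes, with values from -0.95 for Ass1 to 0.07 for Cps1.

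Under ASNase the strains were compared in the same way. In Gcn2-/- against WT 0 of 6 were called lower or higher, beside 2.59% and 1.83% of 9423 genes. Otc was at -1.27 ± 1.01 there, a 2.42-fold difference with overlapping intervals, so that its call within Gcn2-/- liver has no counterpart against WT ASNase liver. In Atf4-/- against WT 1 of 6 was called lower, beside 5.66% of 9577 genes, and 0 of 6 higher, beside 2.59%. This was Otc, which fell by 3.89 ± 1.06 or 14.9-fold, while Ass1 had a log2 difference of -1.51 ± 1.53 with overlapping intervals and was not called. In Atf4-/- against Gcn2-/- 1 of 6 was called lower, beside 2.29% of 9355 genes, and 0 of 6 higher, beside 0.898%. Otc was again that gene, with a log2 difference of -2.61 ± 1.05, a 6.15-fold lower FPKM, and the 6 differences were all below 0 with a median of -0.68 against 0.00 for all genes tested.

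The change of Otc can also be read against the other enzymes within each group. The FPKM of Cps1 was 2.82 times that of Otc in WT PBS, 3.34 times in WT ASNase, 2.22 times in Gcn2-/- PBS and 3.31 times in Atf4-/- PBS. It was 8.07 times that of Otc in Gcn2-/- ASNase and 31.7 times in Atf4-/- ASNase. Otc, which otherwise exceeded Nags 7.76-fold to 10.6-fold in FPKM, was 1.85 times Nags in Gcn2-/- ASNase and 0.399 times Nags in Atf4-/- ASNase liver. Relative to the geometric mean of Cps1, Ass1, Asl, Arg1 and Nags, the Otc level was 0.503 to 0.660 in WT and in the PBS groups, 0.168 in Gcn2-/- ASNase and 0.0439 in Atf4-/- ASNase. Summed over the 7 genes, FPKM with PBS and ASNase came to 5059 and 4809 in WT, 5408 and 4581 in Gcn2-/-, and 3874 and 2747 in Atf4-/- liver. That sum is mostly Ass1, Arg1 and Cps1. It was 0.340% of the FPKM summed over all genes in Atf4-/- ASNase liver against 0.582% to 0.738% in the other groups. In each group 18 to 37 genes lacked the status OK. Those without an estimate count as 0 in that total, such as Alb in all groups and Fgb in the ASNase-treated deletion strains. In whole liver, fewer hepatocytes and less RNA per hepatocyte cannot be told apart.

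Genes around the cycle were read from lists. Of 18 genes that supply nitrogen to the cycle or carry its intermediates, 16 were tested. In WT and Gcn2-/- liver 0 of 16 were called under ASNase. The shares of all genes tested called lower and higher were 0.121% and 0.76% in WT and 2.13% and 1.56% in Gcn2-/- liver. In Atf4-/- liver 2 of 16 were called lower and 0 higher, beside 4.63% and 2.74% of all genes tested. Slc25a13, the mitochondrial aspartate carrier citrin that delivers the aspartate used by ASS1, fell from 75.8 FPKM (41.9 to 110) to 25.9 FPKM (14.3 to 37.4), a log2 difference of -1.55. Aqp9, a liver channel for glycerol and urea, fell from 184 FPKM (88.5 to 279) to 55.9 FPKM (28.0 to 83.7), a log2 difference of -1.72. Slc25a15, the ornithine carrier that feeds OTC, had a log2 difference of -0.67 in Atf4-/- and 0.47 in Gcn2-/- liver and was not called. Ca5a, now named Car5a, the mitochondrial carbonic anhydrase that supplies bicarbonate to CPS1, was at 66.5 and 1.17 FPKM in Atf4-/- liver with PBS and ASNase, but its intervals reached 275 and 35.8 FPKM from 0 and it was not called. Over the 16 the median log2 difference went from -0.06 in WT to -0.58 in Gcn2-/- and -0.82 in Atf4-/- liver.

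Of 20 genes that use arginine or ornithine outside the cycle, 13 were tested in WT and in Atf4-/- liver and 12 in Gcn2-/- liver. In WT 0 of 13 were called, beside 0.121% of all genes tested called lower and 0.76% called higher. In Gcn2-/- liver 2 of 12 were called lower and 0 higher, beside 2.13% and 1.56% of all genes tested, and in Atf4-/- liver 4 of 13 were called lower and 2 higher, beside 4.63% and 2.74%. Gamt, which completes creatine synthesis, fell from 183 FPKM (103 to 263) to 21.3 FPKM (11.7 to 30.9) in Gcn2-/- liver and from 144 FPKM (76.6 to 211) to 3.82 FPKM (1.35 to 6.29) in Atf4-/- liver, log2 differences of -3.10 and -5.20. Its WT values were 178 FPKM with PBS and 144 FPKM with ASNase, and these 2 overlapped.

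Ddah1, which breaks down methylated arginines, fell in both deletion strains, at -1.53 in log2 for Gcn2-/- and -2.38 for Atf4-/- liver. In Atf4-/- liver Aldh4a1, an enzyme of proline and ornithine breakdown, fell by 2.09, and Gatm, the arginine-using enzyme that starts creatine synthesis, fell by 2.02 from a low level of 5.43 FPKM. Odc1 and Srm, which make putrescine and spermidine, rose by 1.56 and 2.02 there, from 17.1 to 50.6 FPKM and from 13.9 to 56.8 FPKM. Both PBS values were the lowest of the 6 groups. Under ASNase 0 of 12 tested genes of this list were called higher in Atf4-/- than in WT liver, beside 2.59% of all genes tested. Odc1 and Srm were at 33.9 and 20.5 FPKM in WT ASNase liver, and only the Srm intervals were separate. Srm was at 20.0 and 42.8 FPKM in Gcn2-/- liver with PBS and ASNase and was not called. Oat, which uses ornithine in pericentral hepatocytes, was at 519 and 75.7 FPKM in Atf4-/- liver with PBS and ASNase, with intervals that overlapped. Sms, which makes spermine, was at 4.02 and 1.67 FPKM there and was not called.

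Of 14 listed regulators of urea cycle genes, 13 were tested and 0 were called in any of the 9 comparisons. Over all genes tested, 0.881% to 8.25% were called in either direction per comparison, so 0 of 13 does not set this list apart. Hnf4a, a hepatocyte transcription factor, was at 145 to 213 FPKM in the 6 groups. Cebpa, a C/EBP factor of hepatocytes, was at 192 and 79.9 FPKM in Gcn2-/- liver with PBS and ASNase and at 151 and 64.9 FPKM in Atf4-/- liver. Its log2 differences were -1.27 and -1.22, and both pairs of intervals overlapped. Cebpb, another C/EBP factor, was at 38.0 FPKM (18.3 to 57.7) with PBS and 103 FPKM (50.0 to 157) with ASNase in Gcn2-/- liver. These intervals overlapped too, whereas the study reports Cebpb as significantly raised by ASNase in that strain only. A regulator not called here is therefore not shown to be unchanged.

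**Figure D3:**
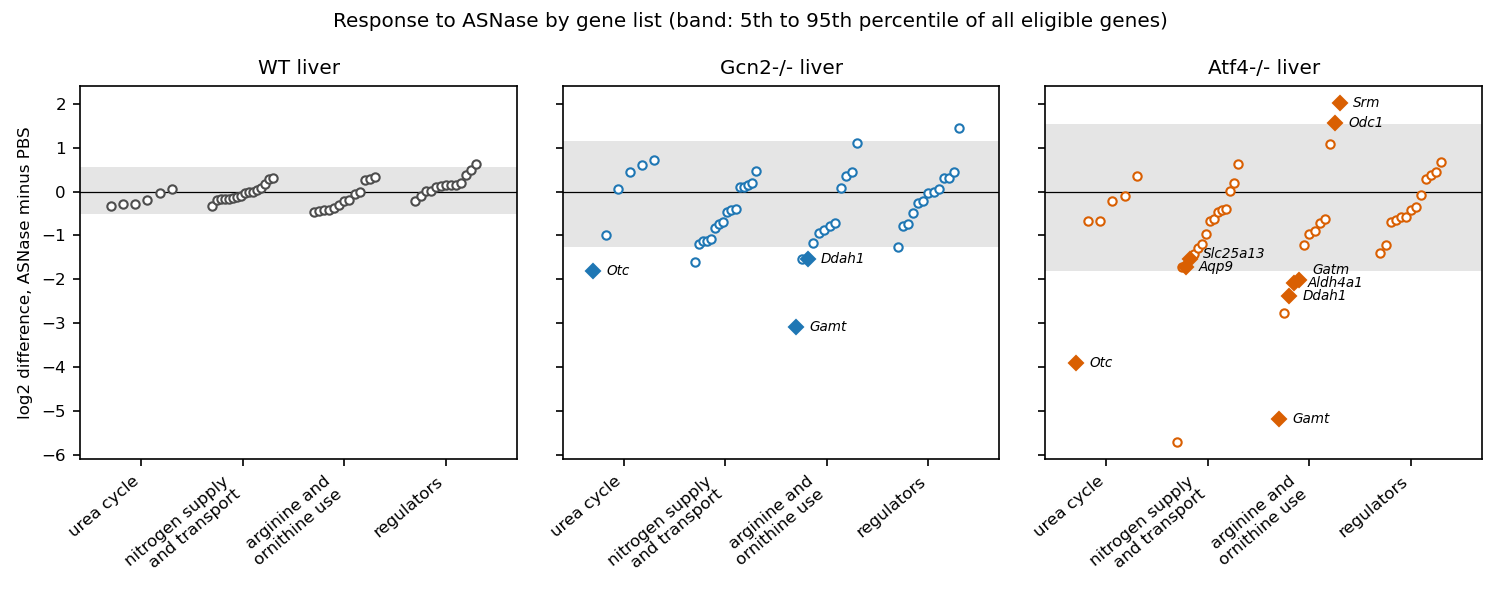
Log2 difference of FPKM + 0.1, ASNase minus PBS, for the tested genes of the urea cycle and of the 3 lists, each point 1 gene ordered by value, in WT, Gcn2-/- and Atf4-/- liver, with filled diamonds for called genes and a grey band from the 5th to the 95th percentile of all genes tested. Otc at -1.81 and -3.92 and Gamt at -3.10 and -5.20 are among the points below the band in the deletion strains. Others also lie below it, such as Ddah1 in both deletion strains and Ca5a, not called, in Atf4-/- liver. None of the plotted genes is called in WT liver, beside 0.121% of all genes tested called lower and 0.76% called higher.

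Markers of hepatocytes and of other cells were read beside the fall of Otc. Of 12 hepatocyte markers, 9 had an estimate in every group. Alb, the defining one, had the status HIDATA in every group, which marks too many reads for an estimate and not absence. Fgb was at 4043 and 4919 FPKM with PBS in Gcn2-/- and Atf4-/- liver and had that status with ASNase in both, so the sums leave it out. Serpina1a had it in Atf4-/- PBS liver. The FPKM of the 9 summed, with PBS and ASNase, to 37717 and 31189 in WT, 36636 and 19266 in Gcn2-/-, and 29393 and 11364 in Atf4-/- liver. Tat, which is in the sums, went the other way, from 613 to 1987 FPKM in Gcn2-/- and from 952 to 2013 FPKM in Atf4-/- liver. Within the deletion strains the sums lay in the same order as Otc, lower with ASNase. Over all 6 groups the orders differed, with the highest sum in WT PBS and the highest Otc in Gcn2-/- PBS liver. Apoa2 alone held 17967 FPKM of the sum in WT PBS liver. The median log2 difference of the hepatocyte markers was -0.95 for Gcn2-/- and -1.37 for Atf4-/- liver. Of those tested, 0 of 10 and 2 of 9 were called lower, beside 2.13% and 4.63% of all genes tested. Beside these medians, the log2 differences of the 5 other members tested ran from -0.99 for Ass1 to 0.71 for Nags in Gcn2-/- liver and from -0.67 for Cps1 and Ass1 to 0.35 for Nags in Atf4-/- liver. Erythroid markers summed to 11.8 and 7.53 FPKM in the ASNase-treated Gcn2-/- and Atf4-/- groups against 156 to 285 in the others. In each of these strains 4 of 5 tested were called lower, beside 2.13% and 4.63% of all genes tested. Macrophage markers summed to 286 and 158 FPKM with PBS and ASNase in WT, 182 and 384 in Gcn2-/-, and 315 and 288 in Atf4-/- liver. Of 12 tested, 3 and 2 were called higher in Gcn2-/- and Atf4-/- liver, beside 1.56% and 2.74% of all genes tested, and 0 lower in both. The median log2 difference of the 12 was 0.88 in Gcn2-/- and -0.69 in Atf4-/- liver, with 3 and 8 of them below 0. Lymphocyte markers summed to 4.56 and 1.46 FPKM in WT, 3.37 and 0.908 in Gcn2-/-, and 4.12 and 0.641 in Atf4-/- liver, all too low to be tested. Neutrophil markers summed to 8.45 and 5.87, 12.0 and 1.64, and 16.7 and 6.54 FPKM in the same order. In Gcn2-/- liver 1 of 2 tested was called lower, beside 2.13% of all genes tested. Endothelial and stellate cell markers summed to 38.2 to 89.2 FPKM and cholangiocyte markers to 20.1 to 39.8. Pancreatic acinar markers reached 320 FPKM in Atf4-/- ASNase and 52.3 FPKM in WT ASNase liver and were at most 2.62 elsewhere, with 6 of 8 at 0 in both Gcn2-/- groups, and skeletal muscle markers were at 944 and 1327 FPKM in WT, 10.4 and 12.5 in Gcn2-/- and 79.4 and 161 in Atf4-/- liver with PBS and ASNase. Their part in the differences of Otc was not tested.

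**Figure D4:**
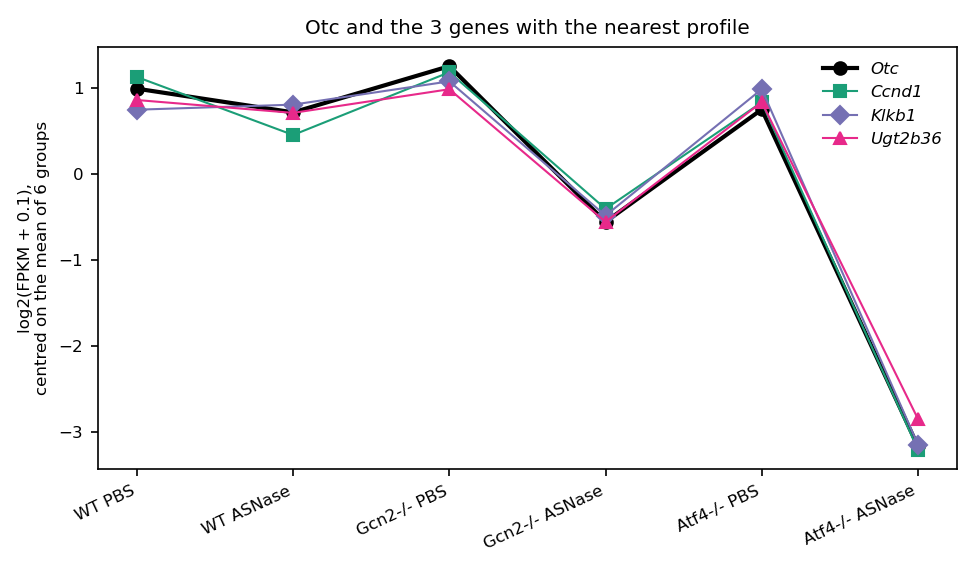
Log2(FPKM + 0.1), centred on the mean of the 6 groups, of Otc and of the 3 genes whose profile over the groups lies nearest to it, Ccnd1, Klkb1 and Ugt2b36, with 1 point a group and no error drawn. All 4 lines are lowest in Atf4-/- ASNase and next lowest in Gcn2-/- ASNase liver, and the root mean square difference from Otc is 0.144, 0.163 and 0.182.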

How the data were processed

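Liver RNA of 18 mice was profiled in 6 groups of 3, set by the labels. Poly-A RNA was sequenced by the authors as single-end reads, which TopHat placed on mm10 before Cuffdiff estimated expression. The deposited FPKM values are 1 estimate a group with an interval and a status, made by the authors from 3 libraries together, and were used as deposited. The sources used here do not say which level the interval covers, so it is given as an error range only.

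From these values, log2(FPKM + 0.1) was compared in 9 comparisons over all genes (Python 3.11.15, pandas 2.3.3, numpy 2.4.6). The limits of 3 FPKM and 1.5 on the log2 scale follow the study's methods, and separate intervals stand in place of its q value. With this rule fewer genes were called for the response to ASNase in each strain than the study reports. Errors on the log2 scale are the interval half-widths carried over and summed as squares. The procedure was tested on simulated data with planted changes far larger than the limit of 1.5. Their recovery was required only with noise far smaller than the intervals, so the test does not cover differences near that limit. With 1 value a group no p-value was computed. Depth is unknown from the expression values, though the study lists the reads of each library, which were not used here.

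All 7 members were named. From the lists, genes called in at least 1 comparison or with separate intervals in a response were to be named. Slc25a15, Ca5a, Oat, Hnf4a, Cebpa and Cebpb, and the markers Cyp2f2 and Hsd17b13, were named after their values were seen. For each member spanning over 1 on the log2 scale, the 3 genes nearest in profile were named, except for Arg2, and Sms was named after its values were seen. Ca5a was matched through its RefSeq synonym after it was first found unmatched. The members and lists were chosen with earlier results of these data known. Alternatives were another pseudocount, another scaling, other limits and no filter on low values.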

Additional observations from a re-analysis of the deposited data

How the results depend on the processing

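Every call of a urea cycle gene, and the absence of one, was the same under 6 alternatives: a pseudocount of 1, scaling by median-ratio factors, a log2 limit of 1, no log2 limit, no filter on low values, and combined half-widths in place of separate intervals. The changed log2 limits, the lack of a filter and the combined half-widths can only add calls. For the calls of Otc they were therefore no check, and only the pseudocount and the scaling could have removed one. The differences of the Otc response between strains stayed past their errors under the first 2 of the 6 alternatives, at -1.52 to -1.54 for Gcn2-/- against WT and -3.57 to -3.70 for Atf4-/- against WT, and -2.04 to -2.18 for Atf4-/- against Gcn2-/-. Without the filter on low values, the number of all genes called went from 80 to 124 in WT ASNase against PBS, from 93 to 144 in Gcn2-/- against WT under PBS and from 101 to 153 in Atf4-/- against WT under PBS, since more genes were tested. No paired analysis was possible because the table holds 1 value a group, and leaving out a replicate could not be run for the same reason. A difference smaller than the intervals, with half-widths of 85.2% to 111% of the value for Cps1, was not detectable here.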

Other observations

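Markers that divide the liver lobule were summarised beside Otc, since urea cycle enzymes are known for periportal hepatocytes. Of the 9 periportal markers, all 9 were tested, 0 were called in WT and Gcn2-/- liver and 2 were called lower in Atf4-/- liver under ASNase, where 0.121%, 2.13% and 4.63% of all genes tested were called lower in WT, Gcn2-/- and Atf4-/- liver. Their median log2 differences were -0.13, -0.88 and -1.24 in WT, Gcn2-/- and Atf4-/- liver. Of the 10 pericentral markers 8 were tested, with 0, 1 and 1 called lower beside the same shares, and medians of -0.02, -0.24 and -1.76. Both zones therefore had medians below 0 in Atf4-/- liver. Otc at -3.92 was below both medians, and the other members tested, from -0.67 for Cps1 and Ass1 to 0.35 for Nags, were above both. In that strain 8 of 9 periportal and 8 of 8 pericentral values were below 0. Single markers varied widely: with PBS and ASNase, periportal Cyp2f2 was at 506 and 29.2 FPKM and periportal Hsd17b13 at 268 and 373 FPKM.

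The genes nearest to Otc over the 6 groups were sought among 10166 candidates by the root mean square difference of centred log2 profiles. They were Ccnd1, a cyclin of the G1 phase (0.144, Pearson r 0.996), Klkb1, the liver-made plasma prekallikrein (0.163, r 0.994), and Ugt2b36, a glucuronosyltransferase (0.182, r 0.998). With PBS and ASNase in Atf4-/- liver Ccnd1 was at 20.1 and 1.13 FPKM, Klkb1 at 87.4 and 4.89 FPKM, and Ugt2b36 at 504 and 39.1 FPKM. The nearest to Ass1 were Snora28 (0.0789), Ftl1 (0.121) and Ttc3 (0.129), and those to Asl were Ecscr (0.0746), Atox1 (0.0898) and Hltf (0.0987), although the intervals of Ass1 and Asl overlapped between all groups. None are given for Arg2, whose lower bound was 0 in every group. All were chosen for likeness over 6 values that share the same libraries, so these are descriptions with no test.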
